A study of Mus musculus with 17 samples.

Results

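Expression of 10 genes of the smooth muscle contractile apparatus and its regulation was followed in RNA sequencing libraries of mouse embryonic kidneys: Acta2, Tagln, Cnn1, Myh11, Myocd, Des, Actg2, Mylk, Lmod1 and Mybpc1. They were taken by symbol through their Ensembl IDs, and all 10 of 10 were found among the 24432 gene IDs of the expression table. Kidneys were dissected at E12.5 from mice of mixed strain. In 5 libraries (genotype Ctnnb1-delta3 c/+;Foxd1, called Foxd1-Cre here) Cre recombinase expressed in the stromal lineage switched on an activated allele of beta-catenin, CTNNB1 ex3/+, in which the loss of exon 3 removes the sites that mark the protein for destruction. In 3 libraries (genotype Ctnnb1-delta3 c/+;Six2, called Six2-Cre) the same allele was switched on by Cre in nephron progenitors. The other 9 libraries were wild type. Both mutants were heterozygous for the allele and carried Cre, and the labels do not say whether the wild types carried Cre, the uncut allele or both. Each mutant was compared with the wild types of matching depth: Foxd1-Cre with wild types 1 to 6 (library set 1, 28800000 to 37500000 reads per library as estimated from the size of the smallest value steps), and Six2-Cre with wild types 7 to 9 (library set 2, 5340000 to 6070000 reads). The labels do not state that the libraries of a group came from separate embryos or litters, so p-values measure the spread between libraries, which may be partly technical.

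Smooth muscle cells contract when myosin, made of heavy chains such as that of Myh11, pulls on actin filaments that contain the products of Acta2 and Actg2. The step is switched on by phosphorylation of the myosin light chain, carried out by the kinase that Mylk encodes. Many of these genes share a short DNA element, the CArG box, that binds serum response factor, and myocardin, the product of Myocd, is the coactivator that turns serum response factor towards muscle genes. In the developing kidney the smooth muscle of vessels, pericytes and mesangial cells derive from Foxd1-expressing stroma, whereas the muscle coat of the ureter comes from Tbx18-expressing mesenchyme.

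RefSeq promoter sequences (GRCm38.p6, 250 bases before to 50 after the annotated start) were held for 6 members: Acta2, Cnn1, Des, Mylk, Lmod1 and Mybpc1. Acta2 is shown because it rose in both mutants, Lmod1 because it holds similar elements and passed the test in neither mutant, and Mybpc1 because it rose most. Capitals mark sequences 1 letter away from a CArG box, which is a run of A and T bases between CC and GG. All are written 5′ to 3′ on the strand of the gene.

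Acta2 promoter, chr19:34255324-34255623, minus strand: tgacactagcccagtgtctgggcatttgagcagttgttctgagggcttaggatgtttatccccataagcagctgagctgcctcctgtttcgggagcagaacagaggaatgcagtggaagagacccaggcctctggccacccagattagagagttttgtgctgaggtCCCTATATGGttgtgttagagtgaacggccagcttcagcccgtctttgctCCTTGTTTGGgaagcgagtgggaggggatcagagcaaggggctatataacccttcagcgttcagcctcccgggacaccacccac
Lmod1 promoter, chr1:135324563-135324862, plus strand: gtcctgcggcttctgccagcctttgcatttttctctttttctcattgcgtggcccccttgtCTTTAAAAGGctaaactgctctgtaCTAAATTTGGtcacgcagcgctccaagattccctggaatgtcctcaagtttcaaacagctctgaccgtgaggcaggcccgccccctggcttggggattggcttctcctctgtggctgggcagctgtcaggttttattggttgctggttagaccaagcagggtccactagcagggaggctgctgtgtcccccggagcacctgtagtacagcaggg
Mybpc1 promoter, chr10:88605103-88605402, minus strand: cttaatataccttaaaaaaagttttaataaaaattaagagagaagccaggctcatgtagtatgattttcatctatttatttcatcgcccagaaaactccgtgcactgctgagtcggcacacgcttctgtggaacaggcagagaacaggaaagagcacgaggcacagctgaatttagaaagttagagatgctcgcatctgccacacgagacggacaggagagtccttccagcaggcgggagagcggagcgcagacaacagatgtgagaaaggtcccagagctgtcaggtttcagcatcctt

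No exact CArG box was present in these 6 windows on either strand, and an exact box was found in 1.629% of 32851 mouse promoters of the same length. Acta2 held 2 sequences 1 letter off, at -84 to -75 and -34 to -25 from the start, and Lmod1 held 2, at -189 to -180 and -164 to -155. Cnn1, Des, Mylk and Mybpc1 held none. A box with at most 1 letter off was found in 21.114% of all promoters, so such a match is common. The core that TCF and LEF factors, the DNA-binding partners of beta-catenin, recognise (searched as AACAAAG, or as ATCAAAG, or as TACAAAG, or as TTCAAAG, on either strand) was absent from all 6 windows and present in 16.876% of all promoters. No 2 of the matches overlapped. These are descriptions of the letters in the windows, and binding of any factor to them was not tested.

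**Figure D1:**
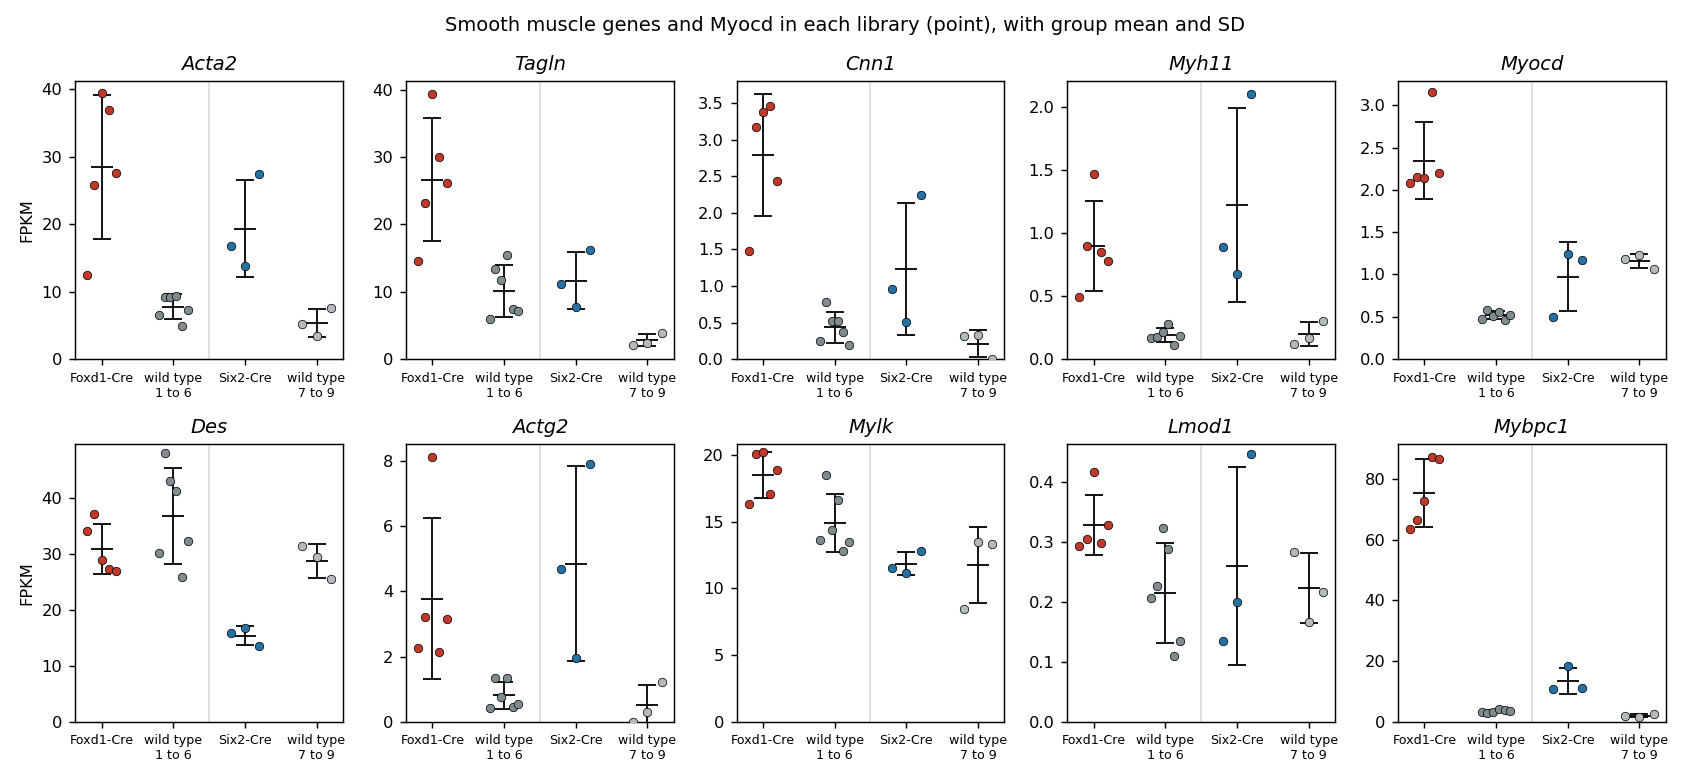
FPKM (vertical axis, linear, from 0) of the 10 genes in each library, with Foxd1-Cre left of wild types 1 to 6 and Six2-Cre left of wild types 7 to 9. Points are libraries and bars are the group mean and SD. Mybpc1 lies at 63.5 to 87.2 FPKM in Foxd1-Cre kidneys and at 3.01 to 4.27 FPKM in wild types 1 to 6. Myocd lies above its wild types in Foxd1-Cre kidneys, and Des lies below its wild types in Six2-Cre kidneys.

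In Foxd1-Cre kidneys most of the contractile genes and their regulator Myocd were higher than in wild types 1 to 6. Among the 8 members that passed the filter on low values, 6 rose (Mybpc1, Myocd, Cnn1, Acta2, Actg2 and Tagln), none fell, and Mylk and Des did not pass the test. The background over all 13996 genes tested was 8.45% called higher and 4.82% called lower. A call is a Benjamini-Hochberg adjusted p under 0.05 from limma on log2(FPKM + 1). Cnn1 passed the filter only through mutant libraries, and Myh11 and Lmod1 did not pass it, so the count describes the genes tested and is not offered as support for a group effect. The median log2 change of the 8 was 1.31, against -0.01 over all genes tested. It includes Cnn1, and the members were chosen with earlier results of these data known. The median, like the count, is therefore a description only. The direction of the whole table depended on scaling: 1182 genes were higher and 674 lower as deposited, 1231 and 408 with libraries rescaled to the same sum, and 1019 and 899 after quantile normalization. The 6 members were called higher under each of these scalings. Because whole kidneys were sequenced, more cells of a type and more RNA per cell cannot be told apart for any member.

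Myocd (chromosome 11, 65176561 to 65269989, minus strand, GRCm38) had 2.08, 2.15, 2.15, 3.15 and 2.20 FPKM in the Foxd1-Cre libraries, against a lowest value of 0.463, a median of 0.517 and a highest of 0.581 FPKM in wild types 1 to 6. The groups did not overlap, which held for 6.89% of all genes tested in this direction, and Foxd1-Cre replicate 4 stood above the other 4 mutant libraries. Its mean was 2.35 ± 0.45 FPKM in Foxd1-Cre kidneys (SD, n = 5) and 0.518 ± 0.046 FPKM in wild types (SD, n = 6), a ratio of 4.53. On the log2(FPKM + 1) scale, which understates the change of low genes, it rose by 1.13 ± 0.08 (SE, limma, adjusted p = 1.2e-06). Without any single library the change stayed between 1.05 and 1.16 and the call held. The approximate number of reads behind it was 331 to 465 in mutant and 72.4 to 93.3 in wild-type libraries.

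Serum response factor and the other myocardin-family coactivators did not pass the test. Srf averaged 31.3 ± 0.82 FPKM in Foxd1-Cre kidneys and 29.9 ± 1.52 FPKM in wild types (SD, n = 5 and 6), and its log2 change was 0.07 ± 0.04 (SE, limma, adjusted p = 0.32). Mrtfa changed by 0.09 ± 0.04 (SE, limma, adjusted p = 0.22) and Mrtfb by 0.12 ± 0.05 (SE, limma, adjusted p = 0.19) on the same scale. These 3 genes were added after their values were seen.

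The actin and thin-filament genes came next. Acta2 (chromosome 19, 34241090 to 34255590, minus strand), the smooth muscle alpha actin, had 12.4, 25.8, 39.4, 36.9 and 27.6 FPKM in the Foxd1-Cre libraries, against a lowest value of 4.86, a median of 8.25 and a highest of 9.41 FPKM in wild types 1 to 6. The groups did not overlap, although replicate 1 of the mutant lay close to the wild types. The log2 change was 1.68 ± 0.27 (SE, limma, adjusted p = 0.0012), and it ran from 1.54 to 1.94 when single libraries were left out, with the call kept each time.

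Actg2 (chromosome 6, 83512905 to 83536265, minus strand), the smooth muscle gamma actin, had 2.26, 3.22, 8.12, 2.13 and 3.17 FPKM in the Foxd1-Cre libraries, against a lowest value of 0.435, a median of 0.648 and a highest of 1.33 FPKM in wild types. All mutant libraries were above all wild types, and replicate 3 was far above the rest of its group. Its log2 change was 1.31 ± 0.26 (SE, limma, adjusted p = 0.0056). The other actins did not pass the test: Actb averaged 1304 FPKM in Foxd1-Cre kidneys and 1177 FPKM in wild types, Actg1 averaged 1310 and 1231 FPKM, and Actc1 averaged 6.59 and 5.35 FPKM. Of the 31-base words in the transcripts of Acta2 and Actg2, 1.50% and 1.46% also occur in other genes, and how reads shared between paralogs were assigned is not given in the sources used here.

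Cnn1 (chromosome 9, 22099216 to 22109630, plus strand), which encodes calponin, an actin-binding inhibitor of myosin, had 1.49, 3.18, 3.39, 3.46 and 2.44 FPKM in the Foxd1-Cre libraries, against a lowest value of 0.195, a median of 0.442 and a highest of 0.774 FPKM in wild types. There was no overlap, and the log2 change was 1.38 ± 0.16 (SE, limma, adjusted p = 9.4e-05). Cnn1 passed the filter only through mutant libraries, so its call is given no weight. Tagln (chromosome 9, 45929619 to 45936058, minus strand), which encodes the actin-bundling protein transgelin, had 14.5, 23.1, 39.4, 30.0 and 26.1 FPKM in the Foxd1-Cre libraries, against a lowest value of 5.95, a median of 9.58 and a highest of 15.4 FPKM in wild types. Here replicate 1 of the mutant lay below the highest wild type, and the log2 change was 1.31 ± 0.28 (SE, limma, adjusted p = 0.0078). Tagln overlaps the plus-strand gene Pcsk7 and an antisense gene, and counting by strand is not stated, so its values are uncertain to that extent.

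Among the myosin genes, Myh11 (chromosome 16, 14194535 to 14291372, minus strand), the smooth muscle heavy chain, had 0.491, 0.900, 1.47, 0.850 and 0.781 FPKM in the Foxd1-Cre libraries, against a lowest value of 0.114, a median of 0.179 and a highest of 0.278 FPKM in wild types. The groups did not overlap. Myh11 was below the filter, and in the fit with no filter, where 6.18% of 20955 genes were called higher, its log2 change was 0.66 ± 0.10 (SE, limma, adjusted p = 0.0015). Mylk (chromosome 16, 34745210 to 35002420, plus strand) had 16.4, 20.1, 20.2, 17.1 and 18.9 FPKM in the Foxd1-Cre libraries, against a lowest value of 12.8, a median of 14.0 and a highest of 18.5 FPKM in wild types. The groups overlapped, and the log2 change of 0.30 ± 0.09 did not pass the test (SE, limma, adjusted p = 0.056). It passed with libraries rescaled to the same sum (adjusted p = 0.047) and with all 9 wild types as controls (adjusted p = 0.046), and also without Foxd1-Cre replicate 1, wild type 2 or wild type 4, for which limma gave adjusted p of 0.044, 0.010 and 0.048. Mylk also has 3 antisense genes within it.

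Des (chromosome 1, 75360329 to 75368579, plus strand), which encodes the intermediate filament desmin, was at 27.0 to 37.2 FPKM in Foxd1-Cre kidneys and 25.9 to 48.0 FPKM in wild types. The groups overlapped, and the log2 change was -0.22 ± 0.15 (SE, limma, adjusted p = 0.42). Des has an antisense gene over it. Lmod1 (chromosome 1, 135324807 to 135368065, plus strand), which encodes leiomodin, a protein that starts actin filaments in smooth muscle, was at 0.293 to 0.416 FPKM in Foxd1-Cre kidneys and 0.110 to 0.324 FPKM in wild types. It was below the filter, and the fit with no filter gave 0.13 ± 0.05 (SE, limma, adjusted p = 0.12).

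Mybpc1 (chromosome 10, 88518279 to 88605152, minus strand) changed most of the members. It encodes the slow myosin-binding protein C of skeletal muscle and is no classical smooth muscle gene. It had 63.5, 66.5, 72.7, 87.2 and 86.5 FPKM in the Foxd1-Cre libraries, against a lowest value of 3.01, a median of 3.45 and a highest of 4.27 FPKM in wild types 1 to 6. The groups lay far apart and each was tight. The means were 75.3 ± 11.1 FPKM in Foxd1-Cre kidneys (SD, n = 5) and 3.56 ± 0.46 FPKM in wild types (SD, n = 6), a ratio of 21.1, and the log2 change was 4.06 ± 0.10 (SE, limma, adjusted p = 2.6e-10).

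No listed skeletal muscle gene was called higher with it. Of 25 listed skeletal muscle genes, 9 were tested and 16 were below the filter. None of the 9 rose and only Ryr1 fell, with a log2 change of -0.24 ± 0.07 (SE, limma, adjusted p = 0.043). Counts this small are near the share over all genes tested, 8.45% higher and 4.82% lower. The summed level of the 25 was 25.9 to 30.5 FPKM in Foxd1-Cre kidneys and 22.4 to 38.4 FPKM in wild types 1 to 6. The muscle-determining factor Myod1 was at most 0.339 FPKM in Foxd1-Cre kidneys and 0.379 FPKM in wild types. Ckm, Myf5 and Myf6 were listed at 0 in 3, 3 and 4 of the 5 mutant libraries. In wild types 1 to 6 they were at 0 in 4, 1 and 4 libraries. Mean FPKM was higher in the mutant for Myog (0.592 and 0.336), Myl1 (0.704 and 0.367) and Mymk (0.136 and 0.048). It was lower for others, such as Tnnt1 (5.41 and 6.31). Myog did not pass the test, with a log2 change of 0.24 ± 0.17 (SE, limma, adjusted p = 0.43). The median log2 change of the 9 tested was -0.004. Of 14 cardiac genes, 7 were tested, none rose and only Tnnt2 fell, by -0.33 ± 0.09 (SE, limma, adjusted p = 0.037). These counts are also near the share over all genes. The summed level of the 14 was 10.9 to 23.9 FPKM in Foxd1-Cre kidneys and 10.1 to 28.6 FPKM in wild types.

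For markers of tissues next to the kidney the summed level did differ, mainly through Amhr2. The summed level of 12 gut, gonad and adrenal genes was 11.7 to 24.5 FPKM in Foxd1-Cre kidneys and 2.82 to 5.21 FPKM in wild types 1 to 6, with 2 of 5 tested genes, Amhr2 and Cdx1, higher, of which Cdx1 passed the filter through mutant libraries alone. Most of it was Amhr2, the receptor for anti-Müllerian hormone, at 14.2 ± 4.87 FPKM in Foxd1-Cre kidneys and 0.983 ± 0.621 FPKM in wild types (SD, n = 5 and 6). The gut factor Cdx2 and the factor Nkx2-5 were each listed at 0 in 4 of 5 mutant libraries, and Nr5a1 was at 0.0610 to 0.160 FPKM in Foxd1-Cre kidneys and 0.0574 to 0.166 FPKM in wild types. The part of adjoining tissue in the higher contractile genes was not tested. For the counts in this paragraph, the share over all genes tested was 8.45% higher and 4.82% lower. Of 10 tested pericyte and mesangial genes 2 rose, and the summed level of the list overlapped, at 110 to 135 FPKM in Foxd1-Cre kidneys and 84.9 to 125 FPKM in wild types. Of 12 endothelial genes 3 rose, with a summed level of 223 to 291 FPKM in Foxd1-Cre kidneys and 210 to 266 FPKM in wild types. Of 7 tested red cell genes 3 fell (Epor, Slc4a1 and Alas2) and none rose, and the summed level was 3255 to 5455 FPKM in Foxd1-Cre kidneys and 3955.5 to 7720 FPKM in wild types.

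**Figure D2:**
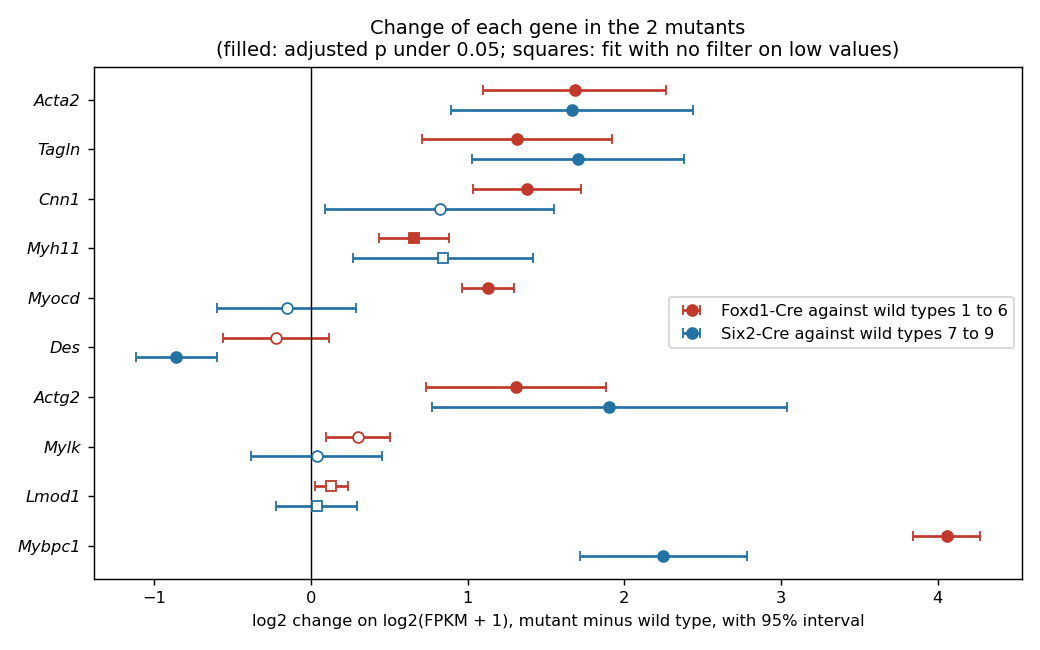
Change of each gene on log2(FPKM + 1) (horizontal axis, mutant minus wild type, 95% interval) in Foxd1-Cre kidneys (upper marker of each pair, red) and in Six2-Cre kidneys (lower marker, blue). Filled markers have an adjusted p under 0.05, and squares come from the fit with no filter on low values. Acta2 stands at 1.68 and 1.67, whereas Myocd stands at 1.13 and -0.15 and Des at -0.22 and -0.86.

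In Six2-Cre kidneys, the actin genes, Tagln and Mybpc1 were higher than in wild types 7 to 9, Myocd did not pass the test and Des was lower. Of the 8 tested members 4 rose (Mybpc1, Tagln, Acta2 and Actg2), Des fell, and Cnn1, Myocd and Mylk did not pass the test. Over all 13828 genes tested, 7.93% were called higher and 5.84% lower. With 3 libraries a group, 18.0% of all genes tested had every mutant library above every wild type and 17.7% had every mutant library below, so a lack of overlap is a weak criterion here.

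Acta2 had 16.8, 13.8 and 27.5 FPKM in the Six2-Cre libraries, against 5.17, 3.41 and 7.59 FPKM in wild types 7 to 9. All 3 mutant libraries were above all 3 wild types, and the log2 change was 1.67 ± 0.32 (SE, limma, adjusted p = 0.021). Leaving out Six2-Cre replicate 1, Six2-Cre replicate 3, wild type 7 or wild type 8 ended the call, with adjusted p of 0.055 to 0.067 in limma and log2 changes of 1.40 to 1.74. Tagln had 11.1, 7.74 and 16.1 FPKM in the Six2-Cre libraries, against 2.14, 2.43 and 3.86 FPKM in the wild types. It too showed no overlap, and its log2 change was 1.70 ± 0.28 (SE, limma, adjusted p = 0.013). Its call ended without wild type 8 (adjusted p = 0.050001) and with all 9 wild types as controls, where the log2 change was 0.70 and the limma adjusted p was 0.21.

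Actg2 had 4.69, 1.94 and 7.93 FPKM in the Six2-Cre libraries, against 0, 0.291 and 1.21 FPKM in wild types 7 to 9, where it was listed at 0 in wild type 7. About 15.0 to 61.8 reads stood behind the mutant values and at most 8.7 behind those of the wild types, so the size of the change is poorly fixed. The log2 change was 1.90 ± 0.47 (SE, limma, adjusted p = 0.046). Leaving out any of the same 4 libraries as for Acta2 ended the call (limma adjusted p of 0.11 to 0.13), as did a pseudocount of 0.1, no filter or quantile normalization (adjusted p of 0.064, 0.062 and 0.0501). Actb averaged 2789 FPKM in Six2-Cre kidneys and 2498 FPKM in wild types, Actg1 averaged 1248 and 1183 FPKM, and Actc1 averaged 4.24 and 12.8 FPKM, and none of these passed the test.

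Cnn1 had 0.954, 0.509 and 2.25 FPKM in the Six2-Cre libraries, against 0.313, 0.324 and 0 FPKM in the wild types. The groups did not overlap, and the log2 change was 0.82 ± 0.30 (SE, limma, adjusted p = 0.13). Myh11 had 0.889, 0.673 and 2.11 FPKM in the Six2-Cre libraries, against 0.118, 0.170 and 0.304 FPKM in the wild types. Again there was no overlap, but in the fit with no filter, where 5.58% of 18757 genes were called higher, the change of 0.84 ± 0.24 did not pass (SE, limma, adjusted p = 0.086). Mylk was at 11.5, 11.2 and 12.8 FPKM in the Six2-Cre libraries and 8.49, 13.5 and 13.3 FPKM in the wild types, with a log2 change of 0.04 ± 0.17 (SE, limma, adjusted p = 0.92).

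Myocd had 0.500, 1.24 and 1.17 FPKM in the Six2-Cre libraries, against 1.18, 1.23 and 1.07 FPKM in wild types 7 to 9. Replicates 2 and 3 of the mutant lay among the wild types and replicate 1 lay below them, with about 13.7 reads. The log2 change was -0.15 ± 0.18 with a 95% interval of -0.60 to 0.29 (SE, limma, adjusted p = 0.63), and without replicate 1 it was 0.03. Lmod1 was at 0.134 to 0.446 FPKM in Six2-Cre kidneys and 0.167 to 0.283 FPKM in wild types, behind which stood at most 10.3 reads in any library of the set.

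Des had 15.9, 16.8 and 13.5 FPKM in the Six2-Cre libraries, against 31.4, 29.4 and 25.5 FPKM in wild types 7 to 9. All 3 mutant libraries were below all 3 wild types, and Des fell by 0.86 ± 0.11 on the log2 scale (SE, limma, adjusted p = 0.0052). The call held without any single library. Mybpc1 had 10.9, 18.2 and 11.1 FPKM in the Six2-Cre libraries, against 1.94, 1.52 and 2.47 FPKM in the wild types. The groups lay far apart, and the log2 change was 2.25 ± 0.22 (SE, limma, adjusted p = 0.0026). This call also held without any single library. None of 9 tested skeletal muscle genes was called, a count near the share over all genes tested (7.93% higher and 5.84% lower). The summed level of the list was 26.0 to 37.0 FPKM in Six2-Cre kidneys and 28.8 to 72.9 FPKM in wild types.

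Vessel-associated markers moved in the same libraries. All 12 endothelial genes rose in Six2-Cre kidneys, where 7.93% of all genes tested rose and 5.84% fell. Their summed level was 272 to 285 FPKM, against 140 to 162 FPKM in wild types 7 to 9. Pecam1, an endothelial adhesion molecule, averaged 32.1 FPKM in Six2-Cre kidneys and 18.6 FPKM in wild types. Of 10 tested pericyte and mesangial genes 8 rose and Gata3 fell, and the summed level of the list was 197 to 199 FPKM in Six2-Cre kidneys and 116 to 121 FPKM in wild types. Pdgfrb, the pericyte receptor for platelet-derived growth factor, rose to 48.5 ± 0.44 FPKM in Six2-Cre kidneys, against 19.0 ± 0.88 FPKM in wild types (SD, n = 3 each), with a log2 change of 1.31 ± 0.05 (SE, limma, adjusted p = 1.3e-04). Abcc9, a potassium channel subunit of pericytes, rose by 1.56 ± 0.12 (SE, limma, adjusted p = 0.0014).

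The summed level of gut, gonad and adrenal genes was 5.08 to 6.12 FPKM in Six2-Cre kidneys and 1.43 to 1.61 FPKM in wild types 7 to 9. Cdx1, a factor of the gut epithelium, averaged 1.23 ± 0.45 FPKM in Six2-Cre kidneys and 0.169 ± 0.053 FPKM in wild types (SD, n = 3 each), but it passed the filter through mutant libraries alone, so its call is given no weight. Of 7 tested red cell genes 6 were lower and Epor, the erythropoietin receptor gene, was higher, with a summed level of 3903 to 4887 FPKM in Six2-Cre kidneys and 7790.5 to 9363 FPKM in wild types. None of 7 tested cardiac genes was called, where 7.93% of all genes tested rose and 5.84% fell. Their median log2 change was -0.43, and the summed level of 14 was 8.52 to 32.1 FPKM in Six2-Cre kidneys and 14.4 to 33.6 FPKM in wild types. Within that list Myh6 alone reached 20.7 FPKM in 1 Six2-Cre library, against at most 0.0524 FPKM in wild types 7 to 9. The part of any of these in the contractile genes was not tested.

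The 2 mutant effects were then compared directly, each against its own wild types. Of 8 tested members, the effect was greater in Foxd1-Cre for 3 (Mybpc1, Myocd and Des) and lower for none, while 5.76% of 13810 genes were called greater and 5.24% lower. The difference, Foxd1-Cre minus Six2-Cre, was 1.28 ± 0.20 for Myocd on the log2 scale (SE, limma fits, adjusted p = 0.0037) and 1.81 ± 0.24 for Mybpc1 (SE, limma fits, adjusted p = 0.0015), and both calls held without any single library. For Des it was 0.64 ± 0.19 (SE, limma fits, adjusted p = 0.036). That call ended in 9 of 17 fits that left out 1 library, where the adjusted p reached 0.084: those without Foxd1-Cre replicate 1 or 2, Six2-Cre replicate 1 or 3, or wild type 1, 5, 6, 7 or 8.

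For the other 5 no difference was called, and the intervals show what sizes remain possible. The difference was 0.01 for Acta2 (95% interval -0.88 to 0.90), -0.39 for Tagln (-1.22 to 0.44), 0.56 for Cnn1 (-0.20 to 1.32), -0.59 for Actg2 (-1.78 to 0.60) and 0.27 for Mylk (-0.17 to 0.71). The Mylk difference was called without wild type 7, with a value of 0.47 (limma fits, adjusted p = 0.025). For Myh11, in the fits with no filter, it was -0.18 (-0.77 to 0.41). Library set and mutant are confounded in this comparison, since no library of one mutant shares a set with the other.

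The members also differed in level, which FPKM allows to be set side by side because it is per transcript length. In Foxd1-Cre kidneys Mybpc1 led at 75.3 FPKM, then Des at 30.9, Acta2 at 28.4 and Tagln at 26.6 FPKM, which overlapped one another. Mylk at 18.5, Actg2 at 3.78, Cnn1 at 2.79, Myocd at 2.35, Myh11 at 0.899 and Lmod1 at 0.328 FPKM followed, and Mylk overlapped with Tagln while Actg2, Cnn1 and Myocd overlapped one another. In wild types 1 to 6 Des led at 36.8 FPKM, followed by Mylk at 14.9, Tagln at 10.2, Acta2 at 7.75 and Mybpc1 at 3.56 FPKM, with the means of the other 5 genes below 1 FPKM. Tagln overlapped with both of its neighbours there.

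In Six2-Cre kidneys the order began with Acta2 at 19.4, Des at 15.4, Mybpc1 at 13.4, Mylk at 11.9 and Tagln at 11.6 FPKM, each overlapping the next. Actg2 at 4.85, Cnn1 at 1.24, Myh11 at 1.22, Myocd at 0.970 and Lmod1 at 0.260 FPKM followed, and of these neighbours only Myocd and Lmod1 did not overlap. In wild types 7 to 9 Des led at 28.8 FPKM, then came Mylk at 11.8, Acta2 at 5.39, Tagln at 2.81, Mybpc1 at 1.98 and Myocd at 1.16 FPKM, with the other 4 at or below 0.501 FPKM on average. There Tagln overlapped with Acta2 and with Mybpc1, whereas Des, Mylk and Acta2 lay apart. Between the 2 sets of wild types, Tagln (10.2 ± 3.86 in set 1 and 2.81 ± 0.92 FPKM in set 2), Myocd (0.518 ± 0.046 and 1.16 ± 0.08 FPKM) and Mybpc1 (3.56 ± 0.46 and 1.98 ± 0.48 FPKM) did not overlap (SD, n = 6 and 3). Actb, no member, was at 1177 FPKM in set 1 and 2498 FPKM in set 2. Apart from the setting with all 9 wild types as controls, levels of the 2 mutants were therefore not set against each other, only their changes.

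**Figure D3:**
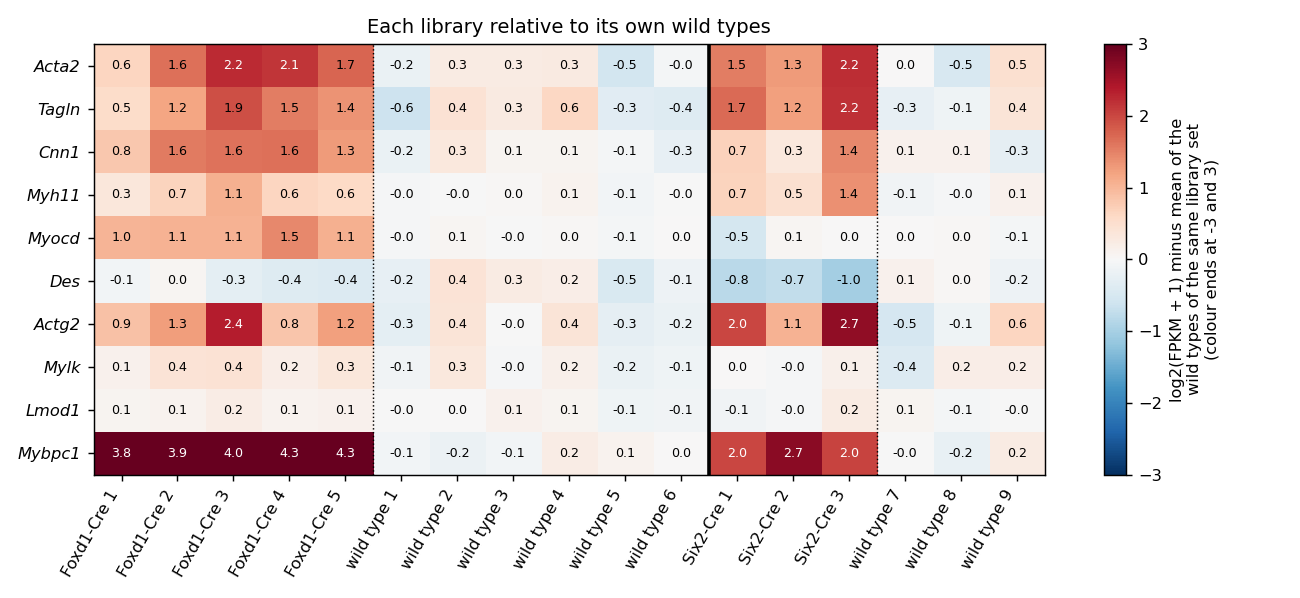
Each cell gives log2(FPKM + 1) of a gene (rows) in a library (columns) minus the mean of the wild types of the same set. Foxd1-Cre stands left of wild types 1 to 6 and, right of the thick line, Six2-Cre stands left of wild types 7 to 9, and the colour scale saturates for Mybpc1 in Foxd1-Cre libraries. Foxd1-Cre replicate 1 is palest for most genes and Six2-Cre replicate 3 darkest, while Mybpc1 and Myocd vary less than Acta2 among the Foxd1-Cre libraries.

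Libraries of a group ranked alike for many of the members but not for all. Foxd1-Cre replicate 1 had the lowest value of its group for 8 of 10 members and replicate 3 the highest for 6, while replicate 4 was highest for 3 and lowest for Actg2. Six2-Cre replicate 3 had the highest value for 7 members and the lowest for Des, and replicate 2 had the lowest for 6 and the highest for 3 (Myocd, Des and Mybpc1). The coefficient of variation in Foxd1-Cre kidneys was 37.6% for Acta2, 34.3% for Tagln and 65.6% for Actg2, against 19.3% for Myocd, 14.7% for Mybpc1 and 9.37% for Mylk. The genes that rose in both mutants were thus not equally variable, and Mybpc1 was the most even of those that rose in Foxd1-Cre kidneys.

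The genes named here for a profile near that of Myocd were not members. Over 17 libraries and 13810 genes, each centred on the wild types of its set, the root mean square difference from Myocd on the log2 scale was 0.14 for Shisa9, 0.15 for Cldn1, 0.16 for Fhdc1 and 0.17 for Tmem100. Their log2 changes ran from 0.97 to 1.17 in Foxd1-Cre kidneys and from -0.11 to 0.02 in Six2-Cre kidneys. Among the members the nearest to Myocd were Mylk at 0.51 and Cnn1 at 0.52, and the farthest was Mybpc1 at 1.89. The measure weighs the size of a change as well as its pattern.

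Other contractile and cytoskeletal genes, from a list of 30 of which 27 were tested, moved in part. In Foxd1-Cre kidneys 8 rose and 3 fell, where 8.45% of all genes tested rose and 4.82% fell. The median log2 change was 0.11, against -0.01 over all genes tested. Nexn, which encodes the actin-binding protein nexilin, was at 4.72 ± 0.75 FPKM in Foxd1-Cre kidneys and 1.62 ± 0.32 FPKM in wild types (SD, n = 5 and 6), a log2 change of 1.13 ± 0.10 (SE, limma, adjusted p = 1.6e-05). Synpo2, which encodes an actin-binding protein of muscle, rose by 0.79 ± 0.05 (SE, limma, adjusted p = 1.1e-06). Cacna1c, the pore of the L-type calcium channel through which smooth muscle takes up calcium, rose by 0.92 ± 0.15, and Prkg1, the cyclic GMP-dependent kinase that relaxes it, by 0.68 ± 0.10 (SE, limma, adjusted p of 0.0019 and 7.8e-04). The 3 that fell were Tpm2, a tropomyosin, Pgm5 and Ppp1r14a, an inhibitor of myosin phosphatase, with log2 changes of -0.31, -0.33 and -0.42, and Pgm5 and Ppp1r14a were named after their values were seen.

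In Six2-Cre kidneys 10 of the 27 rose and 2 fell, where 7.93% of all genes tested rose and 5.84% fell. The median log2 change was 0.20, against -0.01 over all genes tested. Actn1, a cross-linker of actin filaments, rose by 0.50 ± 0.04, Cnn2, a relative of calponin, by 0.46 ± 0.05 and Flna, another actin cross-linker, by 0.31 ± 0.04 (SE, limma, adjusted p of 0.0013, 0.0034 and 0.0046). Tpm2 fell to 23.5 ± 1.31 FPKM in Six2-Cre kidneys, against 56.5 ± 1.10 FPKM in wild types (SD, n = 3 each), a log2 change of -1.23 ± 0.05 (SE, limma, adjusted p = 1.8e-04). Itga8, an integrin of nephrogenic mesenchyme named after its values were seen, fell by 0.50. The effects of the 2 mutants differed for Nexn by 1.13 ± 0.18, for Synpo2 by 0.64 ± 0.14 and for Tpm2 by 0.93 ± 0.08 (Foxd1-Cre minus Six2-Cre, SE, limma fits, adjusted p of 0.0012, 0.019 and 7.4e-07). The Synpo2 difference is given no weight either, since the gene passed the filter only through mutant libraries.

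**Figure D4:**
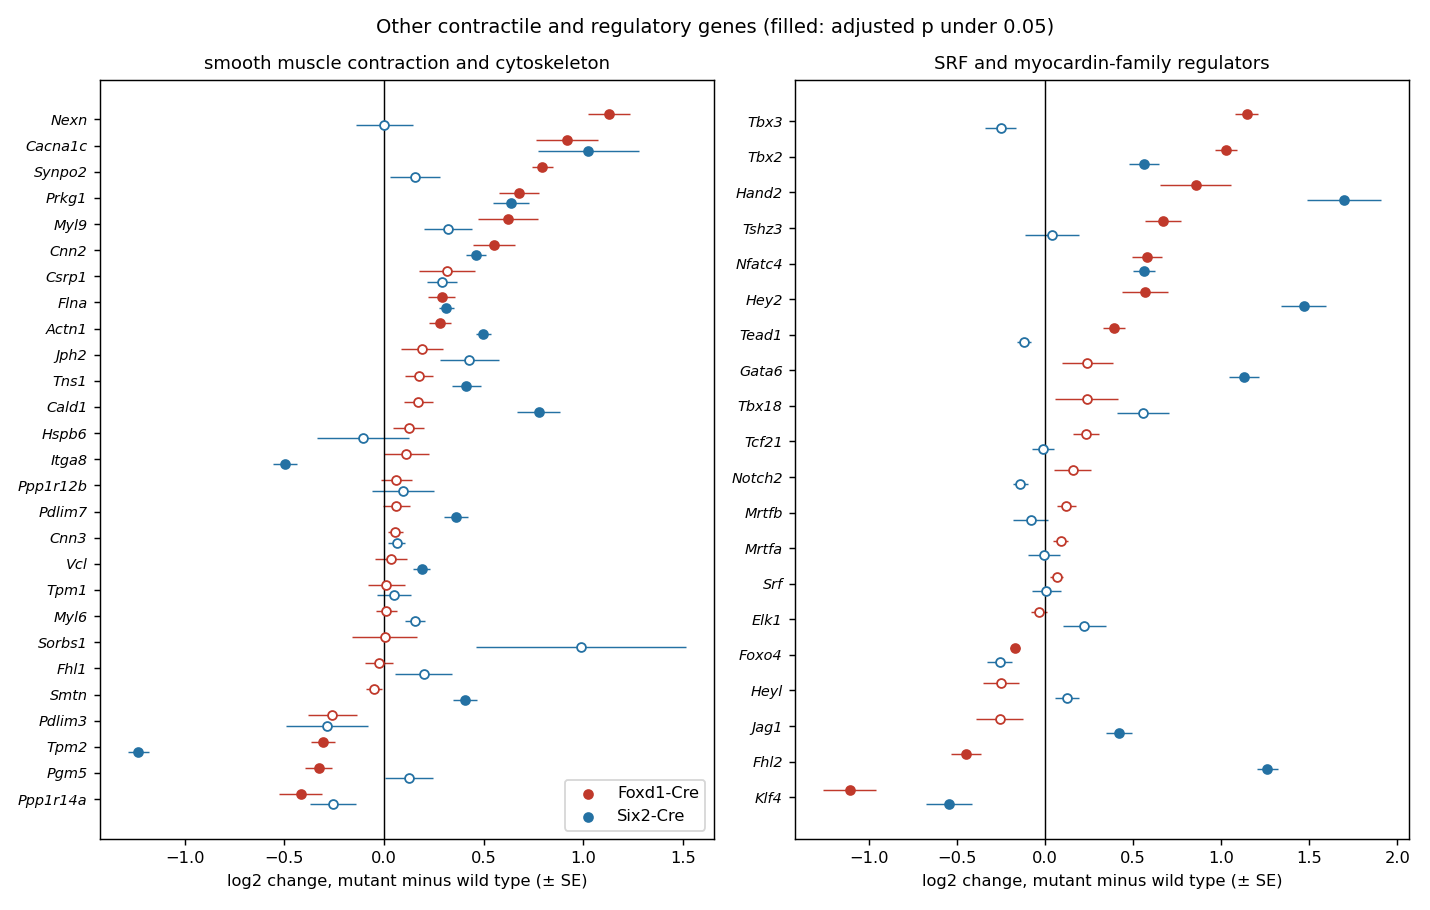
Log2 change (horizontal axis, mutant minus wild type, with SE) of the tested genes of the contraction list (left) and the regulator list (right) in Foxd1-Cre (red) and Six2-Cre (blue) kidneys, ordered by the Foxd1-Cre value; filled points have an adjusted p under 0.05. Nexn and Tbx3 lie near 1.13 and 1.15 in Foxd1-Cre kidneys, Fhl2 lies at -0.45 in Foxd1-Cre and at 1.26 in Six2-Cre kidneys, and Klf4 is lower in both.

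Regulators of serum response factor and of smooth muscle fate formed a list of 22 genes in the table, of which 20 were tested. In Foxd1-Cre kidneys 7 rose and 3 fell, where 8.45% of all genes tested rose and 4.82% fell, and the median log2 change was 0.20. Hand2, among those that rose, passed the filter through mutant libraries alone. Tbx3 and Tbx2, T-box repressors present in ureteric mesenchyme, rose by 1.15 ± 0.06 and 1.03 ± 0.06 (SE, limma, adjusted p of 2.5e-07 and 6.6e-07). Nfatc4, a calcium-responsive factor, rose by 0.58 ± 0.08 (SE, limma, adjusted p = 6.0e-04). Klf4, which encodes a factor known to repress smooth muscle genes, fell to 3.07 ± 0.68 FPKM in Foxd1-Cre kidneys, against 7.82 ± 1.74 FPKM in wild types (SD, n = 5 and 6), a log2 change of -1.11 ± 0.15 (SE, limma, adjusted p = 3.6e-04).

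In Six2-Cre kidneys 7 of the 20 rose and only Klf4 fell, by -0.55 ± 0.13 (SE, limma, adjusted p = 0.043), and the median log2 change was 0.08. Fhl2, which encodes a LIM-domain partner of serum response factor, was at 34.1 ± 2.03 FPKM in Six2-Cre kidneys and 13.6 ± 0.31 FPKM in wild types (SD, n = 3 each), with a log2 change of 1.26 ± 0.06 (SE, limma, adjusted p = 2.3e-04). Gata6 and Hey2, factors of vascular smooth muscle, rose by 1.13 ± 0.08 and 1.47 ± 0.13 (SE, limma, adjusted p of 0.0013 and 0.0018). The difference of the mutant effects was called for Tbx3 at 1.40, Tbx2 at 0.47, Gata6 at -0.89, Hey2 at -0.90 and Fhl2 at -1.71 (limma fits, adjusted p of 3.0e-06, 0.012, 0.0021, 0.0033 and 1.1e-08), and was not called for Klf4 at -0.56 (adjusted p = 0.083). Of 11 genes of ureteric mesenchyme, 4 rose and 2 fell in Foxd1-Cre kidneys, and 3 rose and 2 fell in Six2-Cre kidneys. Over all genes tested, 8.45% rose and 4.82% fell in Foxd1-Cre kidneys, and 7.93% rose and 5.84% fell in Six2-Cre kidneys. Hand2 is counted as higher in both lists and both mutants. It passed the filter through mutant libraries alone, with at most 0.873 FPKM in any wild type, so its calls are given no weight.

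The checks of the labels were as follows. Foxd1 fell to 19.9 ± 3.32 FPKM in Foxd1-Cre kidneys, against 102 ± 7.97 FPKM in wild types (SD, n = 5 and 6), and Six2 fell to 18.0 ± 0.27 FPKM in Six2-Cre kidneys, against 80.8 ± 8.95 FPKM in wild types (SD, n = 3 each). Both genes, which mark kidney stroma and nephron progenitors, were abundant in all wild types. Ctnnb1 averaged 509 FPKM in Foxd1-Cre kidneys and 463 FPKM in wild types, and 406 FPKM in Six2-Cre kidneys and 343 FPKM in wild types, but a whole-gene value does not show the loss of exon 3. The Wnt target Axin2 averaged 68.0 FPKM in Foxd1-Cre kidneys and 10.1 FPKM in wild types, and Notum, a secreted Wnt inhibitor, averaged 59.0 FPKM in Six2-Cre kidneys and 2.33 FPKM in wild types.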

How the data were processed

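Kidney RNA at E12.5 was sequenced in 17 libraries. Per the labels' protocols, tissue was kept in RNAlater and the RNeasy Micro kit was used. The submitters' processing notes name bcl2fastq 2.17.1.14, Salmon and GRCm38. FPKM values of 24432 gene IDs were deposited by the authors, and gene-level summary, strand and any scaling between libraries are not given in the sources used here. Symbols and coordinates came from GENCODE mouse release 21 (GRCm38) and promoters from RefSeq GRCm38.p6.

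Depth was estimated from the smallest step between FPKM values of genes with transcripts of 1500 to 4000 bases. A value of 1 read at 1 kilobase was 0.0266 to 0.0347 FPKM in set 1 and 0.165 to 0.187 FPKM in set 2. The read numbers cover counting error only, and each library of set 1 listed 5312 to 5807 genes at 0, each of set 2 7590 to 7891. The sets were told apart by depth and not by a label.

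The 14014 genes that reached 1 FPKM in 3 or more libraries were transformed as log2(FPKM + 1), and fitted with limma 3.58.1 in R 4.3.3 (variance trend, two-sided, Benjamini-Hochberg over all genes tested), separately for the 5 Foxd1-Cre and 6 wild-type libraries and for the 3 Six2-Cre and 3 wild-type libraries. The difference of effects had its squared errors added, with Satterthwaite degrees of freedom. The code was tested on simulated data. Alternatives were a pseudocount of 0.1, no filter, rescaled or quantile normalized libraries, all 9 wild types as controls, a joint fit, a replicate block, and each library left out. The members, gene lists and library sets were chosen with earlier results of these data known. Named genes were the 10 members, up to 4 genes per list and comparison with the smallest p-values, the driver, target and Wnt read-out genes, other actins, and the 5 genes nearest to Myocd, of which some are not reported here; genes named beyond this are marked, except those named to complete a count or to give a marker's level. The regulator list named Mrtfa and Mrtfb also by older symbols, which are not counted in the 22.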

Additional observations from a re-analysis of the deposited data

Results flagged for a closer look

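In the Foxd1-Cre group, 1 library stood apart for 3 members, by a gap to its nearest neighbour that was large relative to the range of the group. Myocd was highest in replicate 4 at 3.15 FPKM. Actg2 and Lmod1 were highest in replicate 3, at 8.12 and 0.416 FPKM. Groups of 3 could not be examined this way, 20 groups were examined, and chance alone marks about 1 group in 20.

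The mutant effects differed (Foxd1-Cre minus Six2-Cre, log2 scale, limma fits with adjusted p) for 3 members: Mybpc1 by 1.81, Myocd by 1.28 and Des by 0.64. Among the listed genes named in the text, the difference was positive for Tbx3 (1.40), Nexn (1.13), Tpm2 (0.93), Synpo2 (0.64) and Tbx2 (0.47), with adjusted p from 7.4e-07 for Tpm2 to 0.019 for Synpo2, and 3.0e-06 for Tbx3. Synpo2 passed the filter only through mutant libraries, so its difference is given no weight. For other listed genes the sign was the opposite. The difference was negative for Fhl2 (-1.71), Abcc9 (-1.71), Ndufa4l2 (-1.25), Pdgfrb (-1.13), Hey2 (-0.90), Gata6 (-0.89), Mcam (-0.33) and Actn1 (-0.22). The adjusted p was 0.049 for Mcam and 0.045 for Actn1, and 0.0075 for Ndufa4l2, a mitochondrial gene of pericytes. Since each mutant has its own library set, a difference between sets and one between mutants cannot be told apart.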

How the results depend on the processing

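The 6 Foxd1-Cre calls among the members held under each of the 7 other settings and without any single library. Cnn1 is among the 6 and passed the filter only through mutant libraries. The number of members called stayed at 6 to 7 without single libraries for Foxd1-Cre, 2 to 5 for Six2-Cre and 2 to 3 for the difference; all 9 wild types as controls gave 5 for the difference. Over all genes, leaving out single libraries gave 568 to 885 higher and 339 to 582 lower calls for Six2-Cre, 921 to 1236 and 485 to 759 for Foxd1-Cre, and 532 to 814 and 504 to 766 for the difference. Rescaling gave 408 lower calls for Foxd1-Cre, and all 9 wild types gave 337. For Six2-Cre all 9 wild types gave 2747 higher and 3697 lower calls, the joint fit gave 1864 and 1774, and for the difference all 9 gave 5108 and 3397, with the median of all genes shifted to 0.12. With all 9 wild types as controls, Six2-Cre was set mostly against wild types of the other library set. In that setting the wild types cancel from the difference, so the 2 mutants were set against each other across sets. Any result with all 9 wild types thus includes differences between the sets and is no check of the mutant effects alone. The cause of the other shifts was not tested.

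Signs turned only for values that did not pass the test. The Six2-Cre change was 0.18 for Myocd and -0.19 for Mylk with all 9 wild types, and without single libraries it ran from -0.26 to 0.032 for Myocd and from -0.16 to 0.14 for Mylk. The difference for Acta2 was -0.042 with a pseudocount of 0.1, -0.0047 after rescaling and -0.22 to 0.28 without single libraries, and for Tagln it was 1.11 with all 9 wild types. Cnn1 in Six2-Cre kidneys was called with all 9 wild types (0.66, adjusted p = 0.024) and in the joint fit (adjusted p = 0.029), and the difference for Des was not called in the joint fit (adjusted p = 0.088). Ndufa4l2 in Foxd1-Cre kidneys lost its call in 3 of the other settings and in 7 fits without 1 library.

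Foxd1-Cre replicates 1 to 5 share numbers with wild types 1 to 5. The deviations of same-numbered libraries correlated at 0.022 to 0.099, all positive, and those of other pairs at -0.14 to 0.11. Such small correlations over all genes do not settle whether the numbers pair the samples. With the replicate block 926 genes were higher and 499 lower, and the same 6 members were called. For Six2-Cre no such fit could be made, since its libraries share no number with wild types 7 to 9. In library set 2 low genes rest on few reads, which limits Myocd, Cnn1, Actg2, Myh11 and Lmod1 there.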
